A study of Homo sapiens with 3 samples.

Results

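The gene-dense short arm of chromosome 19 was taken as the stretch of hg19 from the short-arm end to 19.8 Mb, without a cluster of zinc finger genes between 11.65 and 12.55 Mb. It held 588 of the 17089 Myc-Idax peaks, counting a peak as a member when its middle lay in those limits. Chromatin immunoprecipitation followed by sequencing (ChIP-seq) had been done with an anti-c-Myc agarose gel on stable HEK293T lines, a transformed human embryonic kidney line. The lines carried either a DNA-binding mutant of Myc-tagged Idax (Myc-IdaxDBM), wild-type Myc-Idax or an empty vector, and the peaks of each construct had been called over the empty-vector cells. The members come from the wild-type list alone. Each construct was in its own line, the tagged protein was introduced by transfection, and whether a line was a single clone is not stated in the labels. For each condition the design names 2 replicates. Each construct had 1 peak list all the same, so there is no replicate error and no test between groups. All intervals below are 95% intervals that cover counting error only and treat peaks as independent, and read depth is unknown. The score of a peak is the value the authors' peak caller gave it. Its scale is not stated, but its form is that of a negative log p-value times a constant, as MACS gives. A score of that kind grows with read depth and with the reads in a peak, which also rise with its width. It is therefore no direct measure of how strongly a site is bound, and strong and weak below mean only high and low scores.

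Idax, also named CXXC4, carries a CXXC zinc finger, a domain that contacts CpG dinucleotides in DNA when they are not methylated. Such CpG is concentrated in CpG islands, and many promoters of vertebrate genes lie in islands that stay unmethylated. Idax has no catalytic domain of its own and is known as a partner and regulator of TET2, an enzyme that oxidises 5-methylcytosine. Chromosome 19 is known for its high density of genes and CpG islands. Its short arm carries, among many others, DNMT1 (the maintenance DNA methyltransferase), UHRF1 (which brings DNMT1 to newly replicated DNA) and MBD3 (a subunit of the NuRD chromatin complex). No peak was assigned to a gene here, because the gene table used is of another build. That table, of GRCh38.p14, listed 1451 protein-coding genes on the whole of chromosome 19, which held 0.868 Myc-Idax peaks per gene (0.820 to 0.917), against 0.853 over all chromosomes. The gene density of the arm itself was not measured.

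The arm was densely occupied. Its 588 peaks over 18.9 Mb made 31.1 peaks per Mb (28.6 to 33.7), and they covered 3.50% of the sequence. The rest of chromosome 19, from 19.8 Mb to its last peak, had 659 peaks or 16.8 per Mb (15.5 to 18.1) and 1.88% covered. All other chromosomes had 15830 peaks or 5.39 per Mb (5.31 to 5.47) and 0.673% covered. The density on the arm was 5.77 times that of the other chromosomes (5.31 to 6.27) and 1.86 times that of the rest of chromosome 19 (1.66 to 2.08). The rest of chromosome 19 and the other chromosomes include centromeres and other unassembled sequence, which lowers their densities by an amount that was not measured. The limit at 19.8 Mb is not the centromere, so short-arm sequence beyond it counts with the rest of chromosome 19. No zinc finger genes were left out of that part. No stretch of the same length outside the arm held as many peaks. The fullest had 492 peaks on the long arm of chromosome 19, 380 on chromosome 6 and 348 on chromosome 17.

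The zinc finger cluster inside the arm was sparser, with 12 peaks in 0.9 Mb or 13.3 per Mb (6.89 to 23.3), which makes the arm around it 2.33 times as dense (1.33 to 4.54). The limits of the cluster and of the arm fell in gaps between peaks, so that counting peaks by any overlap also gave 588. The last member before the cluster lay at chr19:11646626-11647387 with a score of 233.54, and the first peak in the cluster at chr19:11669687-11670606 with 238.73. On the other side, the first member after the cluster lay at chr19:12551200-12552328 with a score of 390.58, and the last cluster peak at chr19:12511169-12512363 with 357.57. The member nearest the centromeric limit lay at chr19:19779262-19780149 (score 149.88), and the next peak beyond the limit at chr19:19843323-19844325 (score 225.61).

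Counted in fixed windows of 250 kb, the peaks reached across almost the whole arm. Of 74 whole windows, 72 held at least 1 peak and 2 were empty (2.70%), whereas 50.8% of the 12350 windows of the whole list were empty. The windows of the whole list also cover centromeres and other unassembled sequence. The 2 empty windows were the first, at the short-arm end, and the one from 8750001 to 9000000. The median window held 7 members and the fullest 30. Windows with 5 or more peaks numbered 53 (71.6%), against 7.61% of windows over the whole list, and windows with 10 or more numbered 20 (27.0%), against 1.35%. In the rest of chromosome 19, 58 of 156 windows (37.2%) had 5 or more. The whole windows held 575 members, and the other 13 lay in 3 windows cut by a limit of the arm or of the cluster.

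**Figure D1:**
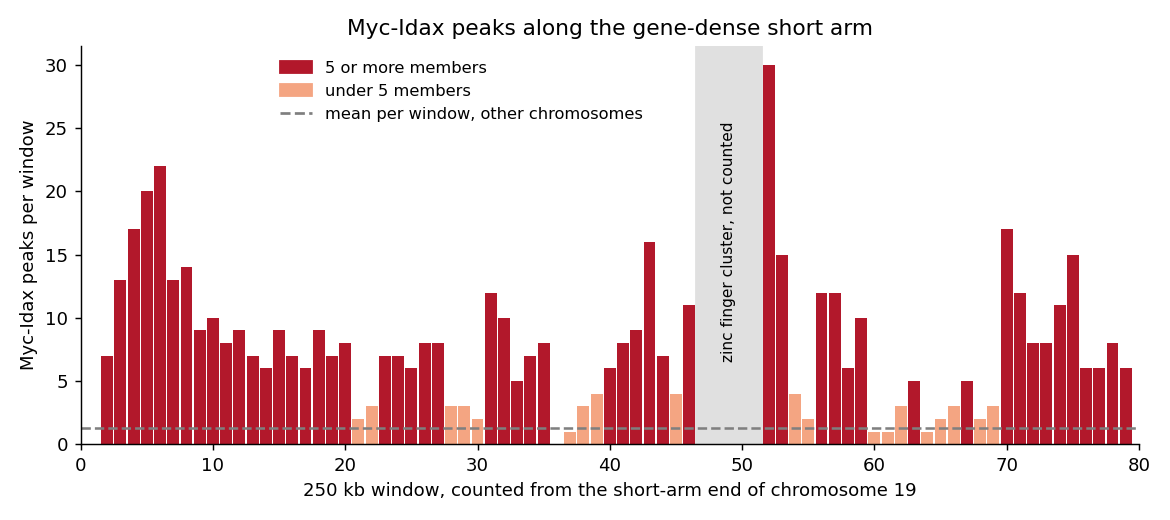
Number of Myc-Idax peaks (y axis) in each whole 250 kb window of the short arm (x axis, window number counted from the short-arm end); dark bars have 5 or more peaks, light bars fewer, the dashed line is the mean over windows of the other chromosomes (1.30), and windows that touch the cluster are shaded and not counted. Dark bars stand next to each other over windows 2 to 20, and the tallest bar, window 52 with 30 peaks, is the first whole window after the left-out cluster.

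**Figure D2:**
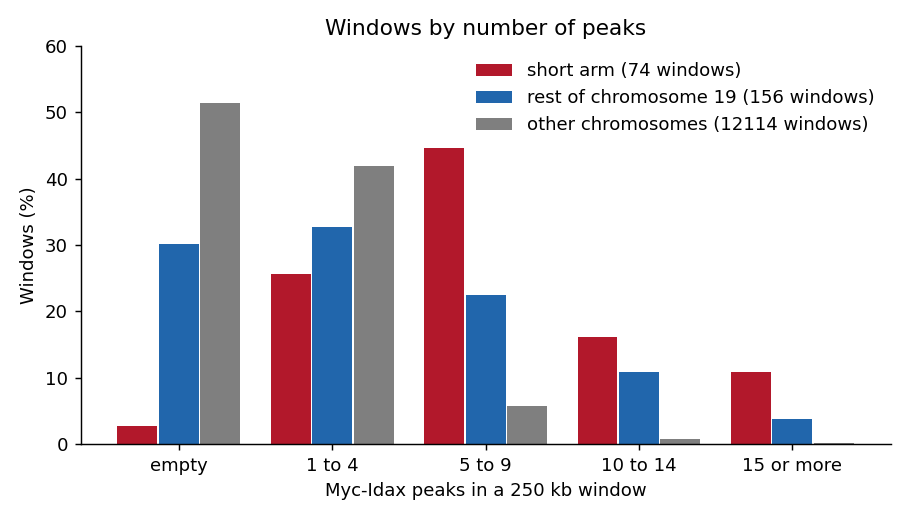
Share of 250 kb windows (y axis, %) by the number of Myc-Idax peaks they hold (x axis) on the short arm, in the rest of chromosome 19 and on the other chromosomes. Empty windows make up 2.70% on the arm, 30.1% in the rest of chromosome 19 and 51.3% on the other chromosomes.

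Most of the dense windows adjoined another, which follows in part from 71.6% of the arm's windows being dense. The 53 windows with 5 or more peaks formed 10 runs, of which 3 were single windows. The longest run covered 19 windows from 250001 to 5000000 and held 201 members, or 42.3 per Mb. The next covered 10 windows from 17250001 to 19750000, at the other end of the arm, with 97 members or 38.8 per Mb. Another 3 runs, of 5 windows each, lay between them, from 5500001 to 6750000 (36 members), from 7500001 to 8750000 (42 members) and from 9750001 to 11000000 (46 members). Elsewhere the longest run was 14 windows with 156 peaks on chromosome 16 from 1 to 3500000, followed by 12 windows with 148 peaks on chromosome 6 from 26000001 to 29000000. In the rest of chromosome 19 it was 10 windows with 120 peaks from 48750001 to 51250000. The length of the first run depended on weak peaks. Among peaks of score 100 or more, the longest run on the arm was 9 windows from 250001 to 2500000, and the longest on the other chromosomes was also 9 windows, on chromosome 16 from 1250001 to 3500000. With all scores kept, the 20 windows of the arm with 10 or more peaks formed 10 runs, of which 4 were single windows.

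Between the runs lay stretches with few peaks. The 4 windows from 8750001 to 9750000 held 8 members in all, the 3 windows from 6750001 to 7500000 held 8, and the 3 windows from 14750001 to 15500000 held 5. The widest gap between neighbours was 489670 bp, from a member ending at 8675751 (score 145.78) to a member starting at 9165422 (score 61.59). The next gaps were 434132 bp after 14801357, 354060 bp after 13345866, 279730 bp after 15667702 and 238317 bp after 15948355. The last 2 gaps flank a single member at chr19:15947433-15948355, which was 923 bp wide, scored 345.19 and was the most isolated on the arm.

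The densest window ran from 12750001 to 13000000, just past the zinc finger cluster, and held 30 peaks. It was the densest of all 12350 windows in the list. The next fullest in the list had 24 peaks each, on chromosome 16 from 3000001 to 3250000 and on chromosome 17 from 46500001 to 46750000. In the short-arm window the peaks covered 13.1% of the sequence, and the median gap within it was 3402 bp. Its median score was 179 (quartiles 87.2 and 329), against 194 over the whole arm. The highest was 612.32, at chr19:12916906-12918136, and 9 of the 30 scored under 100. The window next to it, from 13000001 to 13250000, held 15 peaks.

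The next 2 densest windows adjoined each other near the short-arm end. The window from 1250001 to 1500000 held 22 peaks with a median score of 230, and 9 of them were in the top 25% of scores in the list (408 and above). The window from 1000001 to 1250000 held 20 peaks with a median score of 174, of which 6 were that strong. A member at chr19:1248377-1250303 (score 517.67) crossed the border of these windows and lay 36 bp from the next, at chr19:1250340-1251969 (score 350.07).

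**Figure D3:**
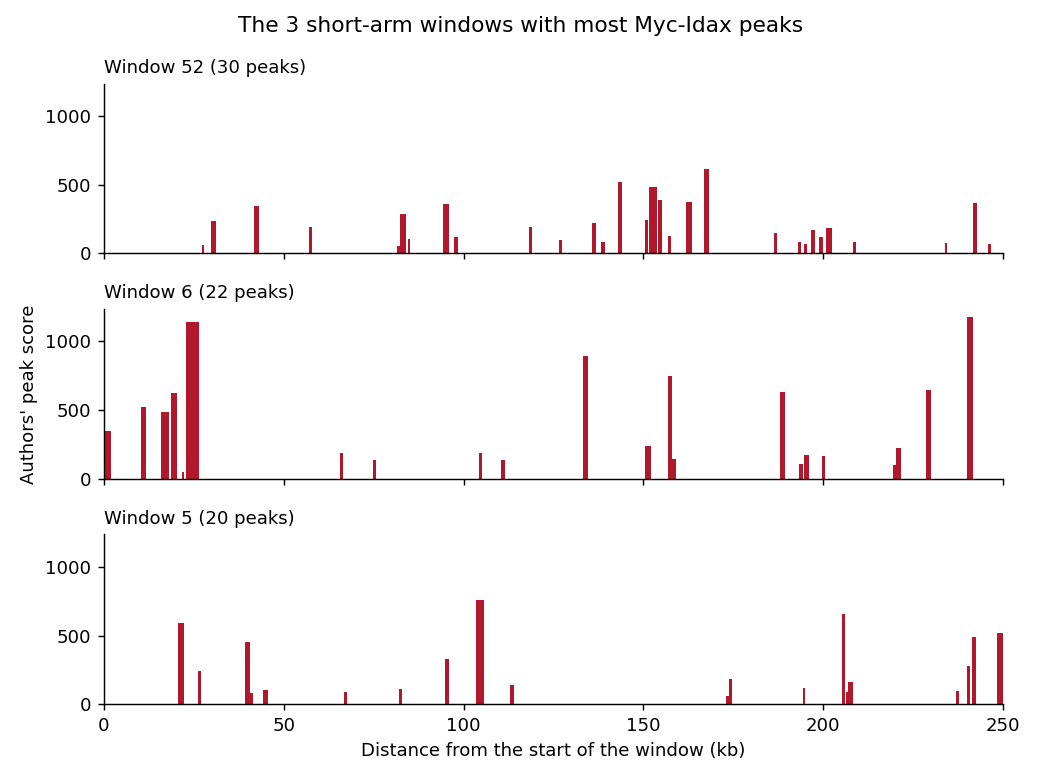
Position (x axis, kb from the window's start) and score by the authors (y axis) of each Myc-Idax peak in the 3 fullest short-arm windows; bar width is peak width. In window 52 all 30 peaks score 612.32 or less, whereas window 6 has 2 peaks above 1000.

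Spacing on the arm was short. The median edge-to-edge gap between neighbouring members was 16795 bp (14473 to 18903), with quartiles of 5329 and 39936 bp over 586 gaps. It was 21770 bp (19721 to 23872) in the rest of chromosome 19 and 57243 bp (55514 to 59182) on the other chromosomes. Gaps over 50 kb made up 19.6% on the arm (16.5 to 23.1), against 51.4% over the whole list. In the rest of chromosome 19 they made up 23.9% (20.7 to 27.3), an interval that overlapped that of the arm. The spacing was uneven. The standard deviation of the gaps was 1.49 times their mean on the arm, and 3.48 and 3.32 times in the rest of chromosome 19 and on the other chromosomes. The longest gaps there were 4066959 and 38058609 bp, in parts that include centromeres and other unassembled sequence. The ratios therefore do not compare the evenness of spacing alone.

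Close neighbours were common. Of the 586 gaps, 69 were under 1 kb (11.8%, 9.28 to 14.7), against 7.78% over the whole list, and 140 were under 5 kb (23.9%, 20.5 to 27.6), against 13.5%. In the rest of chromosome 19 the shares were 8.05% (6.09 to 10.4) and 19.1% (16.2 to 22.4). Both intervals overlapped those of the arm. The 69 gaps under 1 kb joined 128 members and had a median of 210 bp. Among peaks of score 100 or more, 35 such gaps were left between 429 members. The share under that filter was not worked out for the other parts. With all scores kept, joining peaks across the 69 gaps left 519 members. The 5 closest pairs were 11 to 22 bp apart. The closest was at chr19:8590092-8591097 (score 246.3) and chr19:8591109-8591625 (score 78.89). A pair at chr19:2163363-2164599 and chr19:2164622-2165804, 22 bp apart, had scores of 435.7 and 266.1. Others lay at chr19:7984895-7985675 and chr19:7985690-7986239, at chr19:11493265-11494487 and chr19:11494508-11495425, and at chr19:17579980-17580735 and chr19:17580758-17581730.

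Within a pair, the higher score had a median of 296 and the lower a median of 98.7. Some difference follows from the ordering alone, and pairs farther apart were not measured in this way. The lower score was under 100 in 36 of the 69 pairs, and both scores were in the top 25% of the list in 2 pairs. Over all members of the arm, 27.0% scored under 100 and 24.0% were in that top 25%. How many such pairs members drawn regardless of distance would give was not counted, so these counts show no trait of close pairs. Whether such pairs are separate sites or parts of a single broad one cannot be read from a peak list.

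Longer chains also occurred. Joined by gaps under 5 kb, 234 members (39.8%) fell into 94 chains, of which 60 held 2 members, 26 held 3 and 8 held 4 or more. Chains were not counted outside the arm. The nearest peak was under 1 kb away for 21.8% of members, 15.2% in the rest of chromosome 19 and 14.4% on the other chromosomes. It was 1 to under 5 kb away for 18.0%, 17.0% and 8.81% in the same order. The longest chain held 6 members over 17665 bp from 12900472 to 12918136, in the densest window, and its peaks covered 46.7% of that stretch with scores from 128.56 to 612.32. A chain of 5 members from 1260444 to 1276414 ended in a peak of score 1143.21 and covered 58.8% of its 15971 bp. Another chain of 5, from 12943097 to 12952513, was weaker, with scores from 64.91 to 184.16.

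**Figure D4:**
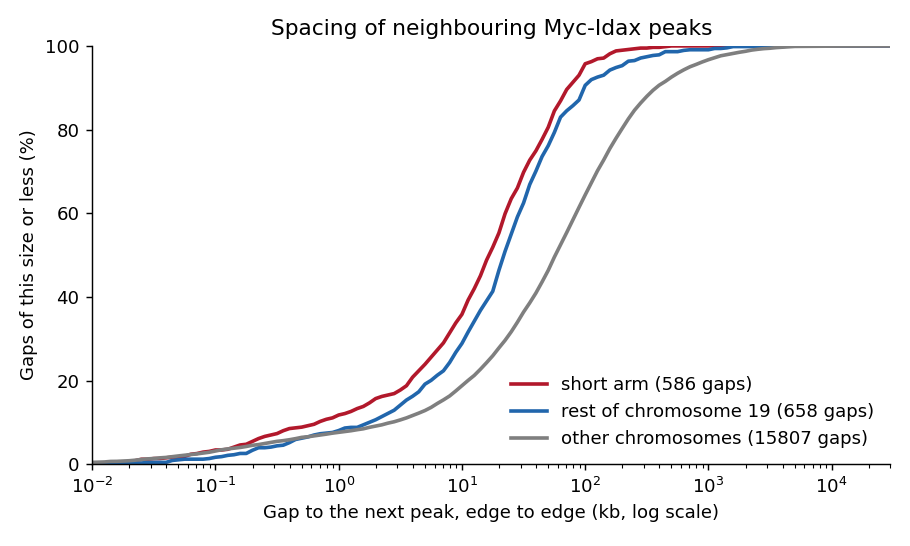
Cumulative share of edge-to-edge gaps between neighbouring Myc-Idax peaks (y axis, %) by gap size (x axis, kb, log scale) on the short arm, in the rest of chromosome 19 and on the other chromosomes. From gaps of 141 bp upward, the short-arm curve lies left of that of the other chromosomes, with medians of 16795 and 57243 bp. At smaller gaps these curves cross.

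Peaks on the arm were somewhat narrower than on the other chromosomes. Their median width was 1006 bp (963 to 1047; quartiles 781 and 1361), against 1126 bp (1116 to 1136) on the other chromosomes. In the rest of chromosome 19 the median was 1008 bp (975 to 1043). Widths of 2500 bp or more were found for 10 members (1.70%, 0.818 to 3.11), against 3.2% over the whole list, and widths under 600 bp for 40 members (6.80%, 4.90 to 9.15), against 4.82%. With peaks less than 1 kb apart joined first, the median width was 1097 bp (1028 to 1158) on the arm and 1205 bp (1192 to 1217) on the other chromosomes.

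The widest member, at chr19:10399643-10403453, spanned 3811 bp with a score of 535.51, and another of 3241 bp lay farther along at chr19:10442895-10446135 with a score of 585.83. The other 3 of the 5 widest were also among the 10 of highest score, described below. The 5 narrowest measured 414 to 465 bp and scored from 50.83 to 98.68. The narrowest, at chr19:1862872-1863285, lay 24 bp from its nearest neighbour.

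The median score on the arm was 194 (171 to 221; quartiles 96.6 and 391), against 209 (189 to 231) in the rest of chromosome 19 and 225 (221 to 229) on the other chromosomes. The interval of the arm overlapped that of the rest of chromosome 19 and only just met that of the other chromosomes. Scores under 100 were found for 159 members (27.0%, 23.5 to 30.8), against 22.1% over the whole list. Scores of 408 and above were found for 141 members (24.0%, 20.6 to 27.6), against 25% over the whole list, and 12 members reached 1000 (2.04%, 1.06 to 3.54), against 2.49%. Both strong and weak peaks were denser than on the other chromosomes. Strong peaks, those in the top 25% of scores, were 5.50 times as dense as on the other chromosomes (4.61 to 6.50), and those in the bottom 25% were 7.23 times as dense (6.20 to 8.39). The bottom 25% of the list's scores held 182 members (31.0%, 27.2 to 34.9), against 25% over the whole list and 24.7% on the other chromosomes. The intervals of these density ratios overlapped, and their difference was not tested. At least 1 peak in the top 25% lay in 52 of the 74 windows. The same count was not made for windows outside the arm, so it gives no comparison.

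The strongest member lay at chr19:2840594-2842377, was 1784 bp wide and scored 2000.72, which placed it 12th in the whole list. The second, at chr19:14246924-14248705, scored 1641.77. The fourth, at chr19:14228259-14229483 with 1488.39, lay nearby, and a weak member of score 57.75 stood between them. The third was one of the widest, 3432 bp at chr19:13262138-13265569, with a score of 1603.47. A narrower peak of 1134 bp at chr19:2976789-2977922 came next with 1373.31.

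The other 5 of the 10 strongest had scores close to each other, from 1143.21 to 1226.73. They lay at chr19:19495780-19497126, chr19:2235363-2237809, chr19:18390000-18393252, chr19:1489976-1491587 and chr19:1272756-1276414. The 10 thus fell in the outer part of the arm, below 3 Mb, or between the zinc finger cluster and 19.8 Mb. None lay between 3 Mb and the cluster, but the border at 3 Mb was chosen after these positions were seen. That stretch was not sparse in members, as its part from 6.5 Mb to the cluster alone held 133 of the 588. Whether 10 members drawn regardless of score would also miss the stretch was not tested, so no link between position and score is drawn. At the low end, the weakest member was at chr19:3987657-3988218 with 50.56, and the next 4 scored from 50.83 to 51.46. The weakest of all peaks in the list scored 50.01.

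Wider peaks had higher scores, with a Spearman rho of 0.78 across the 588 members, which share a library and are not replicates. On the other chromosomes rho was 0.77. At like width the scores were close. Members from 600 to under 1000 bp had a median score of 107 (98.8 to 121), against 108 (106 to 111) on the other chromosomes, and members from 1500 to under 2500 bp had 492 (452 to 557), against 445 (437 to 453). At like score, members above the bottom 25% of the list's scores had lower median widths than peaks on the other chromosomes. Between the lower quartile and the median score, the median width was 938 bp (901 to 999) on the arm, 923 bp (892 to 968) in the rest of chromosome 19 and 1016 bp (1002 to 1027) on the other chromosomes. Between the median and the upper quartile it was 1183 bp (1115 to 1249), 1134 bp (1069 to 1230) and 1283 bp (1269 to 1299) in the same order. In the top 25% it was 1552 bp (1418 to 1635) on the arm, 1489 bp (1430 to 1561) in the rest of chromosome 19 and 1655 bp (1633 to 1671) on the other chromosomes, where the intervals of the arm and of the other chromosomes just met. In the bottom 25% it was 724 bp (696 to 763), 710 bp (681 to 752) and 714 bp (708 to 719). The rest of chromosome 19 was thus about as narrow as the arm at each level.

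**Figure D5:**
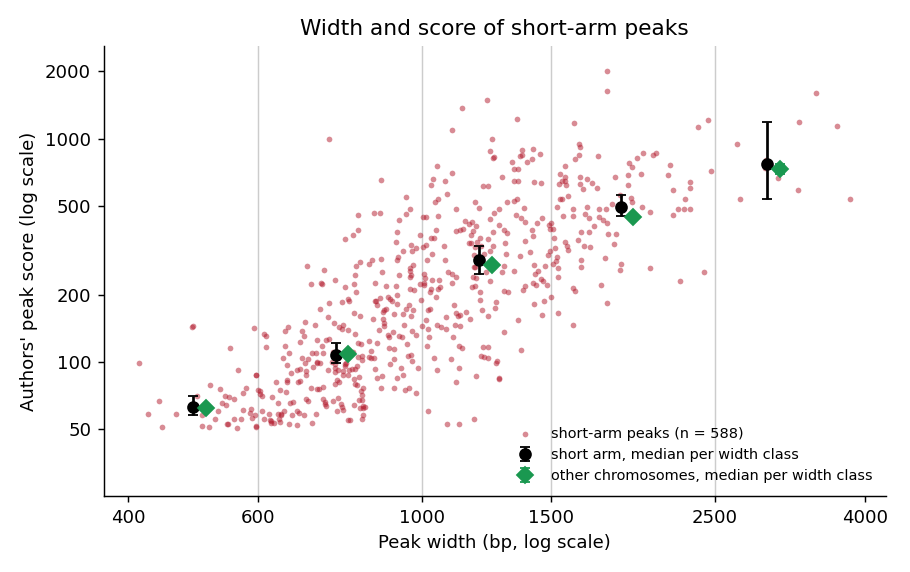
Score by the authors (y axis, log scale) and width (x axis, bp, log scale) of the 588 short-arm peaks; large symbols are medians per width class (classes divided by the grey lines) on the short arm and on the other chromosomes, with 95% intervals. Medians on the arm climb from 62.8 under 600 bp to 769 at 2500 bp and above, and those on the other chromosomes from 62.4 to 729.

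The median score had no steady trend with crowding along the arm. The 292 members in windows with 10 or more peaks had a median score of 177 (146 to 212), the 236 in windows with 5 to 9 had 218 (179 to 246), and the 47 in windows with fewer had 164 (116 to 240). These intervals overlapped. Over the 72 occupied windows, the number of members and their median score had a Spearman rho of -0.07. The number of members and the highest score in the window had a rho of 0.50, and a maximum over more peaks is higher from the count alone. By distance to the nearest peak, members under 1 kb from it had a median score of 180 (143 to 225), and those from 1 to under 5 kb had the lowest, 135 (105 to 238). Members from 5 to under 20 kb had 213 (165 to 252), and members 20 kb or more from it had 219 (181 to 265). On the other chromosomes the medians of these classes, from near to far, were 146 (138 to 154), 187 (173 to 200), 238 (230 to 247) and 250 (244 to 258). In the rest of chromosome 19 they were 191 (154 to 237), 214 (163 to 275), 219 (180 to 264) and 210 (176 to 245).

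Sections of the arm, divided after the values were seen, had unlike numbers of peaks per Mb, while the intervals of their median scores overlapped. Counts over the arm's 74 whole windows had a variance 3.74 times their mean. Intervals that treat peaks as independent are therefore too narrow, for these rates and for the density ratios above. The differences between sections were not tested. Up to 6.5 Mb there were 36.0 members per Mb (31.5 to 40.9) with a median score of 205 (146 to 235). From there to the cluster there were 25.8 per Mb (21.6 to 30.6) with a median score of 181 (154 to 225). From the cluster to 19.8 Mb there were 30.5 per Mb (26.6 to 34.8) with a median score of 212 (164 to 246). Median widths were 970, 1013 and 1019 bp, and their intervals overlapped.

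The DNA-binding mutant gave no peak on the arm. Its list held 38 peaks on 14 chromosomes and 0 on chromosome 19. The exact interval of that share reached 9.25%, and a limit of 3 peaks of 38 would be 7.89%, while the wild-type list had 3.44% of its peaks on the arm. At the wild-type share, 1.31 of 38 peaks would lie there, so a lower share in the mutant list was not detectable with so few peaks. The lists share the empty-vector control and were not tested against each other.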

How the data were processed

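ChIP-seq was done on HEK293T lines with Myc-IdaxDBM, Myc-Idax or an empty vector. Per the submitters' processing notes, the build was hg19 and the tools were MACS 1.4.1 and Bowtie 0.12.7. The authors deposited 2 peak lists of 5 columns without a header, the last a score per peak whose scale is not stated; how the replicates entered a list is not stated in the labels. The lists hold no read counts, so depth is unknown. The members and measures were chosen with earlier results of these data known.

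Starts were converted to 1-based positions. Windows of 250 kb were counted from position 1 by the middle of each peak. Rates have exact Poisson intervals, shares exact Clopper-Pearson intervals and medians order-statistic intervals, all at 95%. Named regions were the 10 highest scores, the 5 widest, narrowest and weakest members, the 5 smallest and 5 longest gaps, the 3 fullest windows, the 3 longest chains and the peaks next to each limit; other regions were chosen after their values were seen. Counting was tested on simulated lists. Sequence and annotation of hg19 were not used here. Calculations used pandas 2.3.3, SciPy 1.17.1 and numpy 2.4.6 under Python 3.11.15, and figures matplotlib 3.10.9.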

Additional observations from a re-analysis of the deposited data

How the results depend on the processing

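Of 35 alternative values, 23 stayed within 1.5 times the reported count or within the interval of the reported median or rho, and 12 moved. With peaks of score 100 or more, the median width was 1173 bp, the median score 275, the median gap 23119 bp, the gaps under 1 kb 35, the longest run 9 windows and rho 0.64. With peaks less than 1 kb apart joined, the median width was 1097 bp, the median gap 20400 bp, the gaps under 1 kb 0 by construction and rho 0.73. Requiring 10 or more peaks left 20 dense windows and a longest run of 6. Keeping the zinc finger cluster in, shifting windows by 0.125 Mb and, chosen after seeing the data, leaving out the densest window moved none of the values computed under them. CpG content of peaks and distance to transcription start sites were not run. No paired analysis was possible because each construct had a single list without replicate numbers, and no replicate could be left out. Depth is unknown, so how many weak peaks another depth would add was not tested.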

Other observations

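In RefSeq's table of GRCh38.p14, sequences from 250 bases before to 50 bases after the starts of protein-coding genes can be counted by chromosome without using positions. The 1548 such sequences on chromosome 19 held a median of 20.5 CG dinucleotides (quartiles 10 and 30), and the 20651 on the other chromosomes held 21 (quartiles 7 and 31). The medians were close, but sequences with 10 or more CG dinucleotides made up 76.6% on chromosome 19 (74.4 to 78.7) and 69.6% on the other chromosomes (68.9 to 70.2). A gene can have more than 1 start in this table, both arms are included, and none of these starts was matched to a peak.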
